A study of Homo sapiens with 4 samples.

Results

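The 9 genes described here encode the 5 NF-κB subunits (NFKB1, NFKB2, REL, RELA and RELB), the inhibitor NFKBIA, the kinase scaffold IKBKG, which is also called IKKγ or NEMO, and the feedback targets TNFAIP3 and BIRC3. They were taken by gene symbol from RNA-seq tables that list 27685 genes, and the estimated reads of their 28 RefSeq transcripts, out of 63714 listed, were summed per gene. All 9 passed the filter on low reads, which kept 14868 genes in all. HT-29 is a human colorectal adenocarcinoma line. One condition, Myc-TRIM40, was HT-29 cells that stably overexpressed human TRIM40 with a Myc tag at its N terminus, and the other, Mock, was HT-29 cells that carried the control vector and are labelled as wild type. Per the study's methods, the constructs were delivered in a retroviral vector and carrying cells were selected with puromycin, so that cells of both conditions went through the selection. No cytokine or other stimulus is named for these cultures. There were 2 experiments with 1 Mock and 1 Myc-TRIM40 library each, so every comparison was made within an experiment first.

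NF-κB is a family of dimeric transcription factors that inhibitor proteins such as IκBα, the product of NFKBIA, hold in the cytoplasm. Cytokine receptors activate a kinase complex in which IKKγ is the regulatory subunit, the kinase marks IκBα for degradation, and the freed dimers enter the nucleus. Among the genes they switch on are NFKBIA itself and TNFAIP3, whose products shut the pathway down again, so mRNA of these genes is often read as an output of the pathway. TRIM40 is a RING-type E3 ligase that has been linked to IKKγ through its modification with the ubiquitin-like protein NEDD8, and the question asked here is whether the mRNA of IKKγ, of the subunits or of the targets differed when TRIM40 was overexpressed.

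NF-κB dimers bind DNA at κB sites, and matches to the κB consensus, a pattern of 10 bases that opens with GGG and closes with CC, were searched on both strands in RefSeq promoter windows of GRCh38.p14 that run from 250 bases before a transcript start to 50 bases from the start on. At least 1 match was found in 11.3% of 35116 windows, and 13.3% of 27305 genes had one in any of their windows. Of the 9 genes, 8 (all but RELB) had windows, 15 in all, and 6 of those 8 had a match: NFKB1, NFKB2, REL, NFKBIA, TNFAIP3 and BIRC3. RELA and IKBKG held none in these windows. The 250 bases before the start are printed for the feedback targets and the inhibitor, and for the 2 windows of NFKB2 that hold matches, because the results below turn on these genes. They read 5′ to 3′ on the gene's strand, and capitals mark the matches. The BIRC3 stretch is chr11:102317234-102317483 (plus strand), that of TNFAIP3 is chr6:137867009-137867258 (plus strand), that of NFKBIA is chr14:35404750-35404999 (minus strand), and those of NFKB2 are chr10:102394328-102394577 and chr10:102395455-102395704 (plus strand).
BIRC3: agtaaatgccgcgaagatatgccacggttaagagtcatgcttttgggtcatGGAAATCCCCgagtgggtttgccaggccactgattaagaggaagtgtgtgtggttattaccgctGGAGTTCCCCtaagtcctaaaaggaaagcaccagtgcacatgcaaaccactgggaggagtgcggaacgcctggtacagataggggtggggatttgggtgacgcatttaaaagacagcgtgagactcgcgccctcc
TNFAIP3: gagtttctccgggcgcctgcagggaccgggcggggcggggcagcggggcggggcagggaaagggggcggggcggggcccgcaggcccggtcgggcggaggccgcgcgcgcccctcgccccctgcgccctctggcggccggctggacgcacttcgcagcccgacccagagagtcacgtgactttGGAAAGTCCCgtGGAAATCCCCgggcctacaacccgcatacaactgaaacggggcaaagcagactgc
NFKBIA: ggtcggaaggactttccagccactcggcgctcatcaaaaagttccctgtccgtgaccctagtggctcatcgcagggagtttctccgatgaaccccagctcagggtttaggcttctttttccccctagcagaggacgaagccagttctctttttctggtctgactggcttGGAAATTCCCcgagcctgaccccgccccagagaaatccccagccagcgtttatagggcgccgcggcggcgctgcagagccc
NFKB2, first stretch: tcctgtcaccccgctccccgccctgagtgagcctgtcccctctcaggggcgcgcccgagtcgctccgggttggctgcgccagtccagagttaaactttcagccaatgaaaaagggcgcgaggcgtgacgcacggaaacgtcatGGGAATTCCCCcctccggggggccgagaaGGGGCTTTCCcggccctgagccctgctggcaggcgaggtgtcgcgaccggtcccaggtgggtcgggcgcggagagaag
NFKB2, second stretch: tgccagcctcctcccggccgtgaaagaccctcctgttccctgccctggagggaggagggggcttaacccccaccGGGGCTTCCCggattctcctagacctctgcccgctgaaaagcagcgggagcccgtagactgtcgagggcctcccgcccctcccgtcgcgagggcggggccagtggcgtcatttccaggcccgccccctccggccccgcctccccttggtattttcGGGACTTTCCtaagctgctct
In BIRC3 the matches began 199 and 135 bases before the start, in TNFAIP3 67 and 55 bases before it, and in NFKBIA 81 bases before it. The capitals at the first NFKB2 stretch hold a pair of matches that overlap by all but 1 base, and REL has such a pair too. A match is a sequence description and says nothing of binding in these cells.

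**Figure D1:**
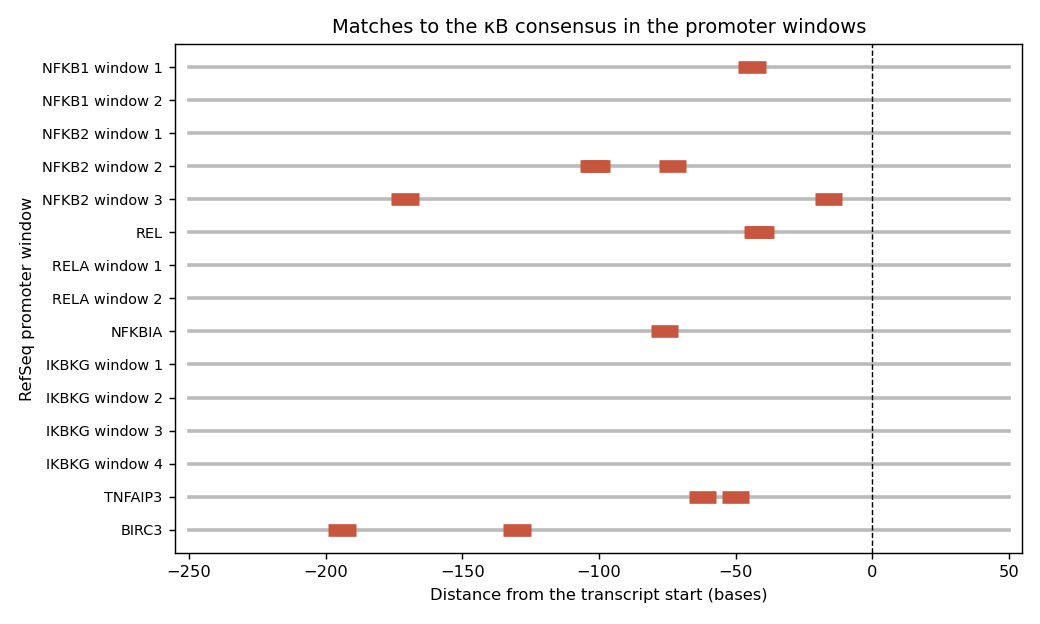
Each grey line is 1 promoter window of the 8 genes that had one, drawn against the distance from the transcript start in bases (dashed line at 0). Red blocks are matches to the κB consensus on either strand, and 7 of the 15 windows hold at least 1.

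The 4 libraries held 60954602 to 67424698 estimated reads. TRIM40 itself had 0 reads in Mock of either experiment, and in Myc-TRIM40 it had 272646 in experiment 1 against 110665 in experiment 2, so the overexpression was seen in both and was larger in experiment 1. Of 11 colonic epithelial markers, 10 reached 1 FPKM (fragments per kilobase of transcript, scaled to the mapped fragments of the library) in at least 1 library and CDX1 did not, and their summed level was 7154 to 9921 FPKM. Leukocyte markers summed to 1.45 to 2.61 FPKM, with CD3E, MS4A1 and CSF1R at 0. Nearly all of that sum came from CD14, the 1 leukocyte marker that reached 1 FPKM. It had 1.43 and 2.36 FPKM in Mock and Myc-TRIM40 of experiment 1, and 2.61 and 2.08 FPKM in experiment 2. Fibroblast markers summed to 0.891 to 1.39 FPKM, mostly from COL1A1 (up to 0.945) and LUM (up to 0.619), with COL1A2 and DCN at 0. Endothelial markers summed to 0.0679 to 0.134 FPKM, with CDH5 at 0. In such bulk libraries, fewer expressing cells and less RNA per cell cannot be told apart.

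In Mock cells the 9 genes spanned a wide range of levels. RELA, which encodes the transactivating subunit p65, was the most abundant, with a mean of 35.6 FPKM over the 2 Mock libraries. IKBKG followed with 19.0 FPKM and NFKBIA with 18.6 FPKM, and the ranges of these 2 genes overlapped. NFKB1, which encodes p105 and p50, had 13.8 FPKM, NFKB2, which encodes p100 and p52, had 7.04 FPKM, and RELB had 4.58 FPKM. REL was lower at 1.47 FPKM, a mean of very unequal libraries that overlapped the range of BIRC3 (0.623 FPKM), and TNFAIP3 was the lowest with 0.277 FPKM. By these means BIRC3 and TNFAIP3 were the least abundant, but in the Mock library of experiment 2 REL, at 0.242 FPKM, lay below BIRC3, and its range overlapped that of TNFAIP3 too.

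**Figure D2:**
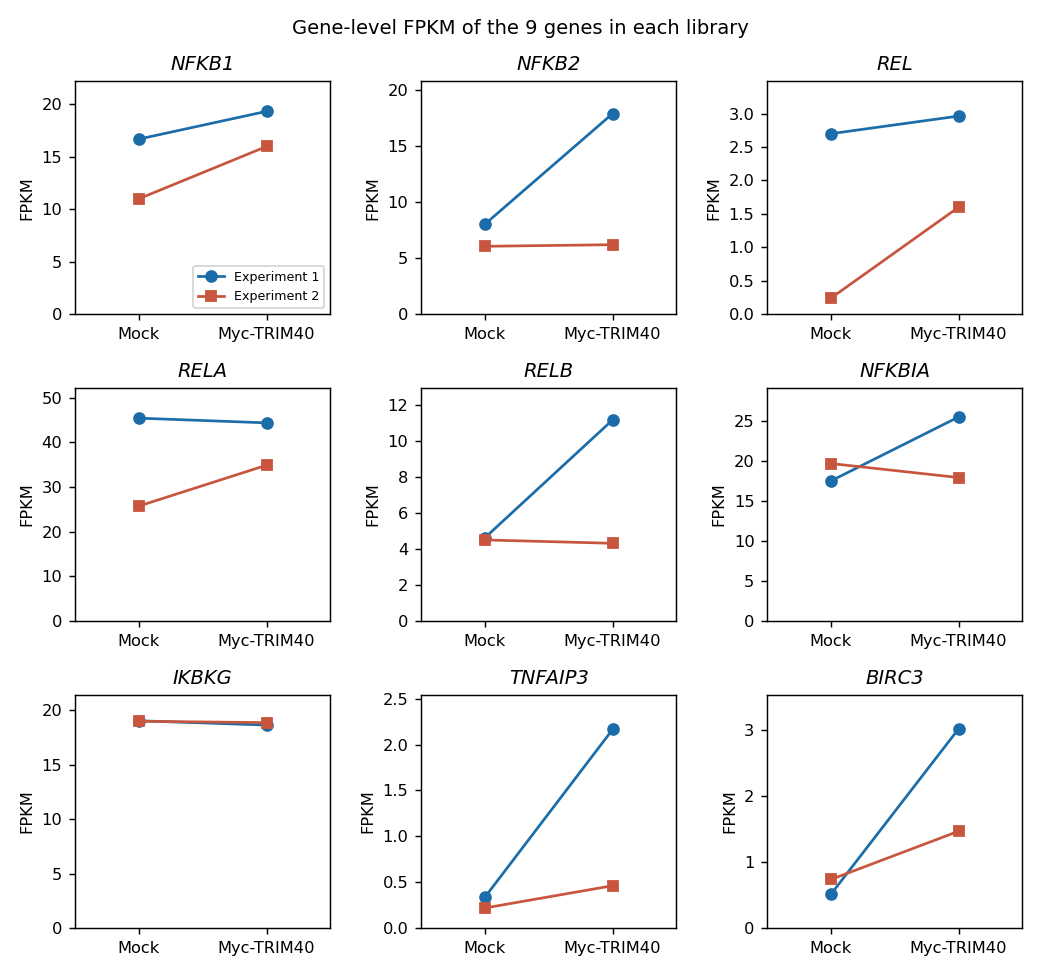
Gene-level FPKM (y axis, from 0, with a scale of its own in each panel) in Mock and Myc-TRIM40 cells, 1 point per library, with lines joining the libraries of experiment 1 (blue circles) and experiment 2 (red squares). TNFAIP3 and BIRC3 were higher in Myc-TRIM40 in both experiments, NFKB2 and RELB were higher in experiment 1 and level in experiment 2, and IKBKG was flat.

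BIRC3 and TNFAIP3, the feedback targets, had the largest differences that ran the same way in both experiments. BIRC3 encodes cIAP2, a ubiquitin ligase of the TNF receptor complex. It lies at chr11:102188181-102210135 on hg19. It had 0.511 FPKM (221 reads) in Mock and 3.02 FPKM (1308 reads) in Myc-TRIM40 of experiment 1, and 0.734 FPKM (353 reads) and 1.47 FPKM (651 reads) in experiment 2. Both Myc-TRIM40 libraries therefore lay above both Mock libraries. On reads normalized for library size and composition, the ratio was 5.76 in experiment 1, with a 95% counting interval of 4.99 to 6.68, and 1.83 (1.60 to 2.09) in experiment 2. These intervals are exact binomial ones on estimated reads and cover counting error only. In the edgeR quasi-likelihood fit with experiment as a block, the log2 fold change was 1.69 (SE 0.38) with an adjusted p of 0.444 by Benjamini-Hochberg (unadjusted p = 0.00183 in edgeR), so BIRC3 did not pass the test across all genes. With DESeq2 it did, at an adjusted p of 0.00916, and over the 5 alternative fits of both experiments the adjusted p of BIRC3 ranged from 0.00916 to 1.00, the highest being from edgeR without the block.

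TNFAIP3 encodes A20, a ubiquitin-editing enzyme that shuts down NF-κB signalling, and lies at chr6:138188325-138204451 on hg19. Its level was 0.336 FPKM (100 reads) in Mock and 2.17 FPKM (640 reads) in Myc-TRIM40 of experiment 1, and 0.218 FPKM (72 reads) and 0.461 FPKM (140 reads) in experiment 2. The Myc-TRIM40 libraries again lay above both Mock libraries, although that of experiment 2 held 0.213 times the normalized reads of that of experiment 1. The ratio was 6.23 (5.04 to 7.77) in experiment 1 and 1.93 (1.44 to 2.60) in experiment 2. The edgeR log2 fold change was 1.82 (SE 0.42), with an adjusted p of 0.469 (unadjusted p = 0.00208 in edgeR), and over the alternative fits the adjusted p ranged from 0.0736, in DESeq2, to 1.00. For both targets the ratio was larger in the experiment with more TRIM40 reads, and the part of TRIM40 level in that was not tested.

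NFKBIA, a feedback gene as well as an inhibitor, did not move one way. It lies at chr14:35870716-35873960 on hg19. Its level was 17.5 FPKM in Mock and 25.5 FPKM in Myc-TRIM40 of experiment 1, and 19.7 and 18.0 FPKM in experiment 2. The groups overlapped, and the ratio of normalized reads lay above 1 in experiment 1 (1.42, 1.34 to 1.51) and below 1 in experiment 2 (0.835, 0.784 to 0.890). The edgeR log2 fold change was 0.12 (SE 0.25, adjusted p = 0.945), and the 95% interval of the fold change ran from 0.733 to 1.62.

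IKBKG mRNA, which encodes the kinase subunit that TRIM40 has been linked to, was nearly level. IKBKG lies at chrX:153770455-153793261 on hg19. It had 19.0 and 18.6 FPKM in Mock and Myc-TRIM40 of experiment 1, and 19.0 and 18.9 FPKM in experiment 2, from 2602 to 2955 reads per library. On normalized reads both Myc-TRIM40 libraries lay just below both Mock libraries, at ratios of 0.958 (0.907 to 1.01) and 0.911 (0.864 to 0.960), an arrangement that 9.67% of all genes tested showed. The edgeR log2 fold change was -0.10 (SE 0.21, adjusted p = 0.948), and the 95% interval of the fold change ran from 0.671 to 1.30. A near-identical pseudogene copy of IKBKG exists, so reads could have been shared with it and its values are uncertain to that extent. Protein and its modification were not measured here.

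Among the subunits, NFKB2 and RELB, which encode the partners of the non-canonical pathway, shared a pattern. NFKB2 (chr10:104153867-104162286 on hg19) had 8.02 FPKM in Mock and 17.9 FPKM in Myc-TRIM40 of experiment 1, and 6.05 and 6.20 FPKM in experiment 2. RELB (chr19:45504707-45541456) had 4.64 and 11.2 FPKM in experiment 1 and 4.52 and 4.33 FPKM in experiment 2. For both genes 1 library, the Myc-TRIM40 library of experiment 1, stood above the other 3, which lay close together. The ratio of normalized reads was 2.22 (2.09 to 2.36) for NFKB2 and 2.35 (2.15 to 2.58) for RELB in experiment 1, against 0.939 (0.869 to 1.01) and 0.879 (0.788 to 0.979) in experiment 2. Neither passed the test, with edgeR log2 fold changes of 0.53 (SE 0.31) for NFKB2 and 0.53 (SE 0.34) for RELB and an adjusted p of 0.888 for each.

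NFKB1 and RELA, which form the classical p50 and p65 dimer, had smaller differences than NFKB2 and RELB in experiment 1 and larger ones in experiment 2. NFKB1 (chr4:103422486-103538459 on hg19) had 16.7 and 19.3 FPKM in Mock and Myc-TRIM40 of experiment 1, and 11.0 and 16.0 FPKM in experiment 2. Its ratio was above 1 in both, at 1.14 (1.09 to 1.18) and 1.34 (1.28 to 1.40), but the Mock library of experiment 1 lay above the Myc-TRIM40 library of experiment 2. RELA (chr11:65421067-65430443) had 45.4 and 44.4 FPKM in experiment 1 and 25.8 and 34.9 FPKM in experiment 2. Its ratio was 0.949 (0.918 to 0.980) in the first and 1.24 (1.20 to 1.29) in the second, so the sign changed between them. The edgeR log2 fold changes were 0.30 (SE 0.21, adjusted p = 0.888) for NFKB1 and 0.12 (SE 0.23, adjusted p = 0.938) for RELA, and the 95% interval for RELA covers fold changes of 0.760 to 1.55.

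REL (chr2:61108630-61155291 on hg19), which encodes c-Rel, had 2.70 and 2.96 FPKM in Mock and Myc-TRIM40 of experiment 1, from 1306 and 1439 reads, and 0.242 and 1.60 FPKM in experiment 2, from 132 and 797 reads. The low value was that of the Mock library of experiment 2, which held 0.0968 times the normalized reads of the other Mock library, the widest gap between Mock libraries among the 9 genes. Its ratio was 1.07 (0.995 to 1.16) in experiment 1 and 5.98 (4.97 to 7.25) in experiment 2. The edgeR log2 fold change with the block was 1.30 (SE 0.51, unadjusted p = 0.0343, adjusted p = 0.888 in edgeR) and 0.59 without it. The value of REL in experiment 2 thus rests on that 1 Mock library.

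Summed over the 5 subunits, the level was 77.5 FPKM in Mock and 95.7 FPKM in Myc-TRIM40 of experiment 1, and 47.6 and 63.0 FPKM in experiment 2, a higher sum in both experiments. The subunits behind the higher sum were not the same. In experiment 1 the share of RELA in the sum was 58.6% in Mock and 46.4% in Myc-TRIM40, while NFKB2 had 10.4% and 18.7% and RELB 5.99% and 11.7%. In experiment 2 RELA had 54.1% and 55.4%, NFKB2 12.7% and 9.83%, and RELB 9.50% and 6.87%, and the largest gain in FPKM was that of RELA.

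**Figure D3:**
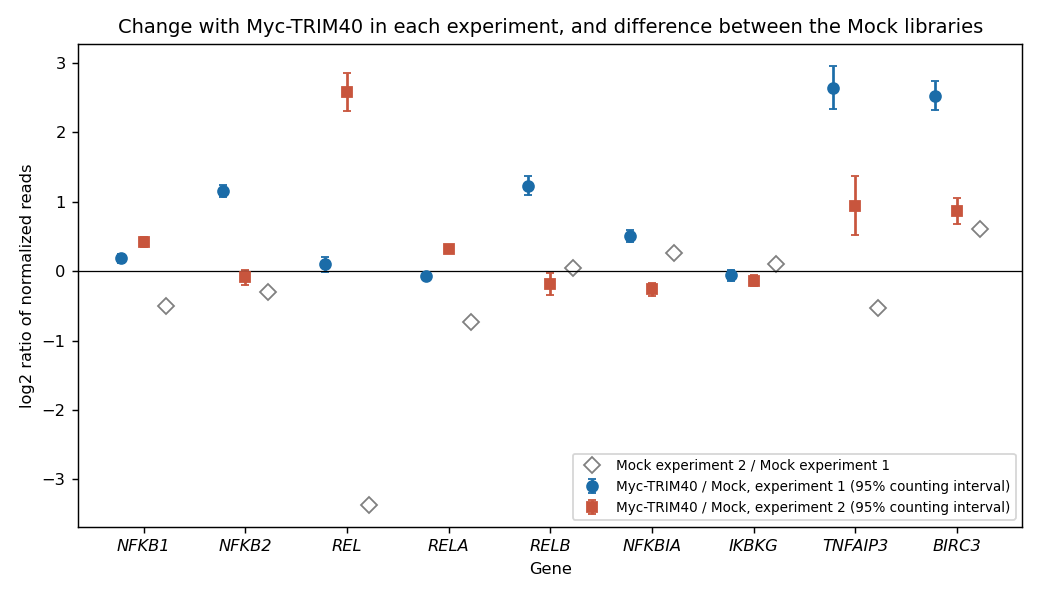
For each gene, the log2 ratio of normalized reads in Myc-TRIM40 over Mock in experiment 1 (blue circles) and experiment 2 (red squares), with 95% counting intervals as bars, and the log2 ratio of the 2 Mock libraries to each other (open diamonds). TNFAIP3 and BIRC3 lay above 0 in both experiments and further from 0 than the Mock diamond. For REL, NFKB1 and RELA the Mock diamond lay further from 0 than either ratio.

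Of the 9 genes, 0 passed an adjusted p under 0.05 in edgeR, where 0.0605% of all genes tested did (9 of 14868), and 1, BIRC3, passed in DESeq2, where 0.363% did. At an unadjusted p under 0.05 in edgeR with higher levels in Myc-TRIM40, there were 3 (REL, TNFAIP3 and BIRC3), against 3.41% of all genes, and at the same p with lower levels there were 0, against 1.13%. The log2 fold change was above 0 for 8 of the 9 genes, with a median of 0.53, whereas 54.9% of all genes tested were above 0, with a median of 0.04. That fit combines the experiments. On normalized reads, 7 of the 9 were above 0 in experiment 1 and 5 in experiment 2. Only 5 had the same sign in both, with IKBKG, below 0, among them. The share of all genes was not computed for these counts. Both Myc-TRIM40 libraries lay above both Mock libraries for 2 of the 9, TNFAIP3 and BIRC3, where 11.0% of all genes did. Exact permutation p-values were not used, since with 2 libraries per condition the smallest possible two-sided one is 0.333.

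The count of genes past 1.5-fold depended on the experiment. On FPKM + 1, a scale that understates changes of weakly expressed genes, 4 of the 9 (NFKB2, RELB, TNFAIP3 and BIRC3) were at least 1.5-fold higher in Myc-TRIM40 in experiment 1, against 2.78% of all genes, and 1, REL, was so in experiment 2, against 8.54%. In both experiments 0 of the 9 were, against 0.457%. On normalized reads with no pseudocount, a choice made after the data were seen, TNFAIP3 and BIRC3 were past 1.5-fold in both, against 3.01% of all genes.

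The reads of several genes were spread over RefSeq transcripts, and their split did not always follow the gene total. For NFKB1, NM_003998 had 1161 reads in Mock and 1985 in Myc-TRIM40 of experiment 1, and 1066 and 2041 in experiment 2, so both Myc-TRIM40 libraries were above both Mock libraries. Its share of the NFKB1 reads was 27.8% and 40.7% in experiment 1 and 34.7% and 49.2% in experiment 2, while that of NM_001319226, whose annotated start lies further downstream, was 39.2% and 30.1%, then 30.1% and 20.9%. NM_001165412 held 29.2% to 35.2%. Transcript-level estimates for isoforms that share most of their exons are uncertain, and these splits were not tested.

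For NFKB2, NM_001288724 had 194 reads in Mock and 1466 in Myc-TRIM40 of experiment 1, and 352 and 394 in experiment 2, so that it gave the largest part of the higher gene total in experiment 1. NM_002502 had 525 and 1047 reads, then 301 and 233, and NM_001322934 had 706 and 886, then 470 and 447. NM_001261403 had 60 to 229 reads per library, and NM_001077494 had 0 reads in Mock of either experiment and, in Myc-TRIM40, 38 and 147. For REL, NM_001291746 had 1306 reads in Mock and 1319 in Myc-TRIM40 of experiment 1, and is listed at 0 in Mock and 712 in Myc-TRIM40 of experiment 2, while NM_002908 had 0, 120, 132 and 85 in the same order. The low REL value of the second Mock library thus went with a single transcript that is listed at 0 there. For TNFAIP3, NM_006290 had 0, 400, 67 and 67 reads, NM_001270508 had 100, 240, 0 and 0, and NM_001270507 had 0, 0, 5 and 73, so a different transcript carried the higher value in each experiment. All BIRC3 reads were on NM_001165, those of RELB and NFKBIA were on the single transcript listed for each, NM_021975 held 87.8% to 93.5% of RELA, and NM_001099857 held 74.3% to 85.5% of IKBKG.

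**Figure D4:**
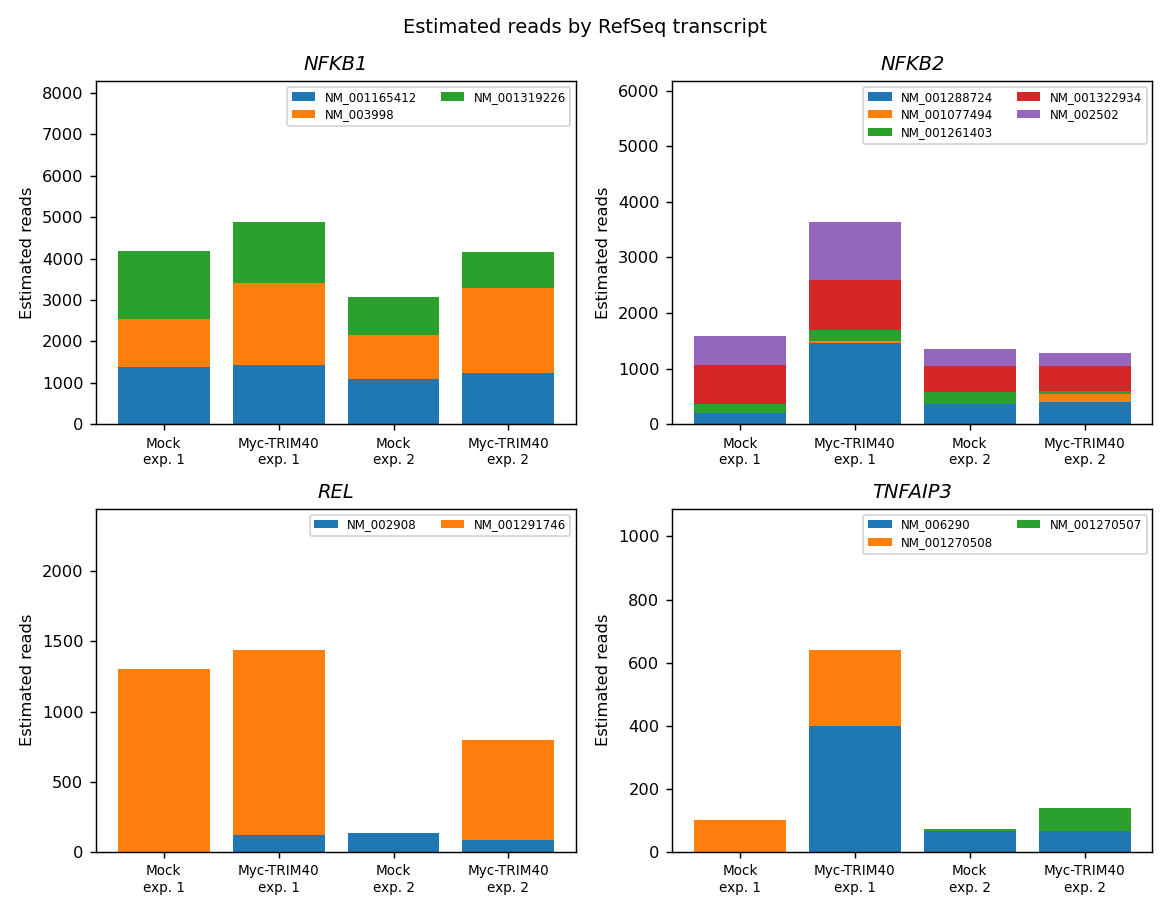
Stacked bars give the estimated reads (y axis, from 0) of each RefSeq transcript of NFKB1, NFKB2, REL and TNFAIP3 in the 4 libraries. The Mock bar of REL in experiment 2 lacks the NM_001291746 segment that makes up most of the other 3 bars, and the NM_003998 segment of NFKB1 is taller in Myc-TRIM40 than in Mock in both experiments.

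The rest of the pathway was read from 5 lists with 80 genes, of which 69 passed the filter. In edgeR and in DESeq2, 0 of the 69 passed an adjusted p under 0.05, against 0.0605% and 0.363% of all genes. With shares that small, a count of 0 does not set these genes apart. Their median log2 fold change in edgeR was 0.20. At an unadjusted p under 0.05 in edgeR, 8 of 69 (11.6%) were higher, against the 3.41% of all genes given above, and 1 was lower, against 1.13%. Both Myc-TRIM40 libraries lay above both Mock libraries for 14 genes (20.3%), against 11.0% of all genes, and below them for 3, against 9.67%. In experiment 1, 10 (14.5%) were at least 1.5-fold higher on FPKM + 1, against 2.78% of all genes, and in experiment 2 there were 0, against 8.54%.

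Upstream of NF-κB, the 3 most abundant receptors and adaptors had edgeR log2 fold changes near 0. The 18 receptors and adaptors that passed the filter had a median log2 fold change of 0.16, with 13 above 0, and their most abundant genes were IRAK1, an interleukin-1 receptor kinase, at 193, 167, 121 and 153 FPKM (Mock and Myc-TRIM40 of experiment 1, then of experiment 2), LTBR, the lymphotoxin β receptor, at 78.9, 81.8, 83.3 and 83.9 FPKM, and TNFRSF1A, the TNF receptor, at 41.2, 42.0, 36.1 and 38.2 FPKM. The edgeR log2 fold changes of these 3 were -0.02, -0.05 and -0.02. That of IRAK1 combined opposite differences, with ratios of FPKM + 1 of 0.866 in experiment 1 and 1.26 in experiment 2. IL1R1, the interleukin-1 receptor, named after its values were seen, was weakly expressed at 0.196, 0.519, 0.126 and 0.247 FPKM, with both Myc-TRIM40 libraries above both Mock libraries and a log2 fold change of 1.10 (SE 0.37, unadjusted p = 0.0179, adjusted p = 0.888 in edgeR). The 10 kinases and activators had a median of 0.11. The largest value among them was that of MAP3K14, the kinase of the non-canonical pathway and likewise named after its values were seen, with 3.24, 4.95, 1.81 and 2.97 FPKM and a log2 fold change of 0.58 (SE 0.22, unadjusted p = 0.0256, adjusted p = 0.888 in edgeR). CHUK, which encodes IKKα and pairs with IKKγ in the kinase complex, had 11.0, 11.5, 15.4 and 12.9 FPKM, TAB2 had 22.6, 25.4, 15.5 and 20.4 FPKM, and CARD10 had 15.3, 13.7, 8.50 and 11.1 FPKM.

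The 10 ubiquitin chain enzymes and partners of A20 had a median of 0.18. RBCK1, a part of the linear ubiquitin ligase, had 63.7, 90.6, 75.2 and 72.0 FPKM, TNIP1, a partner of A20, had 41.4, 59.8, 32.7 and 36.4 FPKM, and TAX1BP1 had 35.0, 43.4, 38.8 and 44.6 FPKM, its Myc-TRIM40 libraries being above both Mock libraries. The 7 other inhibitors had a median of 0.03. Among them NFKBIB, which encodes IκBβ, had 38.0, 37.0, 42.6 and 33.4 FPKM, with both Myc-TRIM40 libraries below both Mock libraries, while NFKBIZ had 22.6, 26.2, 15.6 and 21.1 FPKM and BCL3 had 9.04, 14.0, 6.56 and 7.28 FPKM. Each of these 6 genes had an adjusted p of at least 0.888 in edgeR.

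Most of the other target genes had higher levels in Myc-TRIM40 of experiment 1 and were divided in experiment 2, and the difference between experiments was not tested. Of 24 that passed the filter, 21 had a log2 fold change above 0, with a median of 0.48. On FPKM + 1 their median log2 ratio was 0.50 in experiment 1, where 9 were at least 1.5-fold higher, and -0.00 in experiment 2, where 0 were. The median of all genes tested was 0.03 in experiment 1 and 0.08 in experiment 2, so that of the targets lay above it in the first and below it in the second. The ratio was above 1 for 23 of the 24 in experiment 1 and for 12 in experiment 2, and 6 of the 9 were also above 1 in experiment 2. On normalized reads, both Myc-TRIM40 libraries lay above both Mock libraries for 9 targets (37.5%), against 11.0% of all genes, and below them for 0, against 9.67%. The 9 include targets with few reads, IL1B (11, 13, 13 and 20, in the library order used above) and LTB (0, 56, 20 and 21). They also include CFLAR, for which FPKM gave another order, 11.4, 13.5, 16.9 and 11.9, with the Mock library of experiment 2 highest. Of the most abundant targets, BCL2L1, a survival gene, had 99.96 to 106 FPKM, LCN2, an iron-binding defence protein, had 151, 185, 179 and 164 FPKM, and IER3 had 34.7, 48.1, 60.6 and 47.9 FPKM. LCN2 and IER3 were thus higher in Myc-TRIM40 in experiment 1 and lower in experiment 2, while BCL2L1 was nearly level. The chemokines CXCL1, CXCL8 and CCL20 were among the 9 past 1.5-fold in experiment 1. CXCL1 had 1.40, 3.76, 3.07 and 2.59 FPKM and CXCL8 had 1.07, 6.36, 3.15 and 2.69 FPKM, so both were lower in Myc-TRIM40 in experiment 2. CCL20, which attracts lymphocytes to mucosa, had 0.463, 5.30, 1.24 and 1.79 FPKM. ICAM1, a leukocyte adhesion molecule, had 1.67, 3.82, 1.17 and 1.80 FPKM, and IL32 had 0.263, 4.36, 0.404 and 0.588 FPKM. These 5 genes were picked after their values were seen, from the 9 past 1.5-fold in experiment 1. All had log2 fold changes above 0, which follows largely from that choice, and their adjusted p was 0.888 in edgeR. At an unadjusted p under 0.05 in edgeR, 5 targets were higher and 1, SOD2, was lower. SOD2 had 21.2, 15.7, 26.2 and 23.2 FPKM, with a log2 fold change of -0.58 (SE 0.24, unadjusted p = 0.0408, adjusted p = 0.888 in edgeR). In the promoter windows, 15 of the 27 targets that had one (55.6%) held a κB match and 10 of the 40 genes of the other 4 lists did (25.0%).

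**Figure D5:**
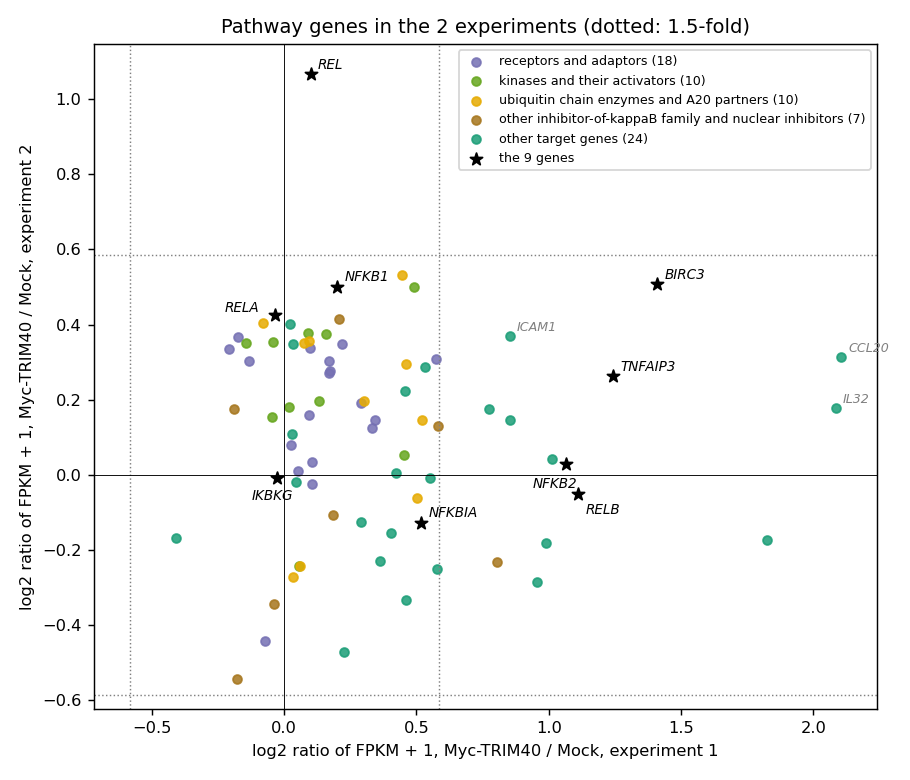
Each point is 1 gene of the pathway lists (circles, coloured by list) or of the 9 genes (stars), placed by its log2 ratio of FPKM + 1 in Myc-TRIM40 over Mock in experiment 1 (x axis) and experiment 2 (y axis), with dotted lines at 1.5-fold. Of the 10 circles right of the dotted line in experiment 1, 9 are target genes, and REL is the single point above it in experiment 2.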

How the data were processed

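RNA was sequenced from 4 HT-29 libraries, 2 per condition, and each of the 2 deposited tables held 1 Mock and 1 Myc-TRIM40 library of an experiment. The submitters' processing notes name HISAT2 2.1.0, StringTie 1.3.4d and hg19, with no role or order. Per transcript, the authors deposited estimated read counts, FPKM and transcript lengths, and for experiment 2 also TPM. The deposited estimated counts were whole numbers and were summed per gene. FPKM was summed per gene as deposited. TPM served as an alternative, for experiment 2 as deposited and for experiment 1 computed here by rescaling FPKM to the TPM total. No column of the tables was left out.

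The 9 genes and the pathway lists were chosen with earlier results of these data known. Of the lists, genes passing the edgeR test or 1.5-fold in both experiments, and the 3 most abundant per list, were to be named, as were transcripts with 10% of a gene's reads. Counts were fitted with edgeR 4.0.16 (R 4.3.3; filterByExpr, TMM, quasi-likelihood test, Benjamini-Hochberg adjustment) with experiment as a block, leaving 1 residual degree of freedom plus a median prior of 7.44. DESeq2 1.42.0 and limma 3.58.1 on log2(FPKM + 1) were alternatives. Libraries of the same experiment deviated together (correlation 0.449), and the study describes the experiments as independent. On simulated data for this comparison (14727 genes), 93 of 97 changes of 4-fold and 20 of 103 of 2-fold were found, with 2 false calls. The simulation gave all genes the same dispersion (0.048) and no difference between experiments, unlike these libraries, so these shares need not hold for the real data. Promoters were searched in RefSeq windows of GRCh38.p14. Builds were not converted.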

Additional observations from a re-analysis of the deposited data

How the results depend on the processing

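Of the 9 genes, 0 were called by edgeR, also with upper-quartile normalization, without the filter on low counts, without the replicate block and by limma, and 1 (BIRC3) by DESeq2. Of the pathway genes 0 were called by any of these. The main edgeR fit called 0.0605% of all genes and DESeq2 0.363%, and for the other fits the share was not computed. In edgeR without the block, BIRC3 had an unadjusted p of 0.00868 and an adjusted p of 0.9998. In limma these were 0.00478 and 0.819. A count of 0 in such fits therefore says little about single genes. The median log2 fold change of the 9 genes, 0.53, was 0.59 without the block. With 1 experiment left out there is 1 library per condition and no test, and the median was 0.31 to 0.51. The log2 fold change then ranged from -0.091 to 1.15 for NFKB2, -0.19 to 1.23 for RELB, -0.26 to 0.51 for NFKBIA and -0.076 to 0.31 for RELA. The first 3 turned negative in experiment 2 alone and RELA in experiment 1 alone. On log2(FPKM + 1) in limma, the values of TNFAIP3 and BIRC3 were 0.75 and 0.96.

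The count of the 9 genes at least 1.5-fold higher in both experiments on FPKM + 1, 0, became 2 (TNFAIP3 and BIRC3) with a pseudocount of 0.1, 1 (BIRC3) with TPM and 2 on normalized reads, the last added after the data were seen, and ran from 1 to 4 in single experiments. For the pathway genes, 0 became 2 (IL1R1 and MAP3K14) with that pseudocount, 1 (ICAM1) with TPM and 2 (IL1R1 and IL32) on normalized reads. The 2 on normalized reads are 2.90% of the 69 pathway genes that passed the filter, against 3.01% of all genes. In single experiments the pathway count ran from 0 to 10. For the pseudocount of 0.1 and for TPM, the share of all genes was not computed, so those counts have no background beside them. The alternative that adds an IKBKG pseudogene was not run, since no row matched its symbol. TNFAIP3, with 72 to 640 reads, is the gene for which depth limits precision most.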
